A study of Mus musculus with 2 samples.

Results

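The long noncoding RNA probes of a mouse expression array made up 16238 of its 55681 gene probes (29.2%). They were chosen by name alone, as the gene probes whose identifiers begin with A_30_P, without those named NEAT2 (3 probes), NEAT1 (5 probes) and H19 (5 probes). Each is 1 spot of 60 bases. Of the members, 16181 carry a genome region and strand as their name, such as chr15:32167516-32174427_R, where F is the forward and R the reverse strand of mm9, the build that the file headers name. A further 44 carry 1 of 9 gene names, among them XIST, TSIX, TUG1, HOTAIR and KCNQ1ot1. The members cover 3552 regions on 20 chromosomes, with a median region length of 7339 bases, and 118 members had no position. Regions can span genes, and whether a probe lies in an exon, an intron or a UTR was not analysed here.

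Long noncoding RNAs are transcripts without a long open reading frame. Many are spliced and polyadenylated like messenger RNAs, many are scarce or limited to one cell type, and some are made beside or opposite a protein-coding gene. A few have known roles in the nucleus: XIST coats and silences one X chromosome of female cells, and KCNQ1ot1 silences imprinted neighbours on the chromosome from the father.

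The RNA came from pancreatic islets of control mice and of RbΔK7 knockin mice, whose retinoblastoma protein resists phosphorylation. Each array compared 1 control sample (green, Cy3) with 1 mutant sample (red, Cy5), from 15 ng of RNA each, and asks which transcripts differ between the genotypes. Array 1 is called pair 1 (control 1 and mutant 1) and array 2 pair 2 (control 2 and mutant 2), and the 4 samples were harvested independently. Tissue was digested with collagenase through the bile duct, and islets were then hand-picked and frozen. Strain, age, sex, zygosity and any promoter that limits the mutation to a cell type are not given in the sources used here. A ratio is mutant over control within an array on the log2 scale, and a level is the log2 signal of 1 sample after normalization. Dyes were not swapped, so genotype and dye cannot be told apart. In bulk RNA, fewer cells of a type and less RNA per cell cannot be told apart.

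The sequences that the results turn on follow, each 5′ to 3′ as the probe is printed in the files. XIST is shown because its probes split the pairs.
XIST at chrX:100655839-100655898: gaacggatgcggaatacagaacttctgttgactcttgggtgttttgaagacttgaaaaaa
XIST at chrX:100656082-100656141: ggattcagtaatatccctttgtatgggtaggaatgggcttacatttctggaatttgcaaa
The next 2 had the highest ratios in pair 2, and capitals mark the 38 bases that both hold.
chr15:32167516-32174427_R: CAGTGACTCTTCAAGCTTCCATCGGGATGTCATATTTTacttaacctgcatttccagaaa
chr15:32167516-32174417_R: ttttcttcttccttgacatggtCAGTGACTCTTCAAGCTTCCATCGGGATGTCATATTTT
The probe over Malat1 was the one at least 2-fold lower in both pairs.
chr19:5771425-5848475_R: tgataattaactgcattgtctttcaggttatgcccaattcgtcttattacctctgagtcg
Of the next 4, all among the 8 lowest members with 1 sign in both pairs, 3 hold CTCTCC, in capitals.
chr3:87575891-87576343_F: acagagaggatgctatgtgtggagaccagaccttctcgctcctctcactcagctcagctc
chr13:83867711-83878140_R: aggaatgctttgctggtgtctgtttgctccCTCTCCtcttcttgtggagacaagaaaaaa
chr1:192484781-192485014_R: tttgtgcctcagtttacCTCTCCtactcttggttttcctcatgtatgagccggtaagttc
chr4:128207615-128242898_F: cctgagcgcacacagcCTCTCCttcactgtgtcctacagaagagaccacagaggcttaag
In 2 places of chromosome 7 probes share a run of 32 bases, in capitals, and a further run just before it. Both also hold CTCTCC, in that further run and left in lower case.
chr7:50509139-50526856_R: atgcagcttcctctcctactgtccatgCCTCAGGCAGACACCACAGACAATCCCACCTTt
chr7:48794017-48815817_F: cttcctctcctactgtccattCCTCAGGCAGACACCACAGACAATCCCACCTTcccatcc
The last 3 were low in mutant 2 alone, and capitals mark the longest run of C and T.
chr12:52880692-52933444_F: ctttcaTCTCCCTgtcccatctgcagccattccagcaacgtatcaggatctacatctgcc
chr1:36086491-36087863_R: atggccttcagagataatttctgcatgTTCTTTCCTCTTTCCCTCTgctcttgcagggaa
chr9:78372153-78372834_F: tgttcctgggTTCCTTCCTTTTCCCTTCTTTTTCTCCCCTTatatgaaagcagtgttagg

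Some marker lists of the tissue differed between the pairs, and others had like medians in both. Acinar cell genes (15 of 15 tested), mostly of digestive enzymes, had a median ratio of 0.46 in pair 1 and -5.12 in pair 2. Their median levels were 16.35 in control 1, 16.92 in mutant 1, 17.55 in control 2 and 11.79 in mutant 2. All 14 stromal genes were above 0 in both pairs, with medians of 1.21 and 1.16, and 7 passed limma's test. Beta cell genes (10 of 10 tested) had medians of -0.36 and 0.25, with median levels from 11.55 to 12.23. The part of these cell types in the results below was not tested.

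Most members were dim. Well above background were 14.6% of members in control 1 (2364 probes), 14.5% in control 2 (2362), 16.8% in mutant 1 (2723) and 23.3% in mutant 2 (3786). For the 39443 other gene probes the shares were 44.7%, 46.0%, 49.1% and 56.6% in that order. Mutant 2 thus had the highest share for both kinds of probe. The lowest level well above background was 5.59 there, against 6.36 to 6.41 in the other samples. No sample was well above background for 12249 members (75.4%), and all 4 were for 1968 members (12.1%), against 16704 of the other probes (42.3%). Mutant 2 alone accounted for 949 members (5.84%) and for 6.41% of the other probes.

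**Figure D1:**
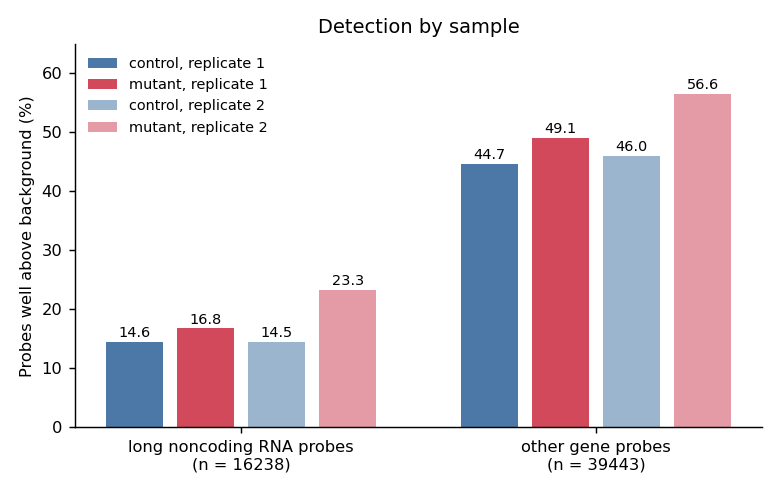
Share of probes well above background (percent, y axis) in each of the 4 samples, for long noncoding RNA probes and other gene probes; each bar is 1 sample and there are no error bars. Members run from 14.5% to 23.3% and other probes from 44.7% to 56.6%, with mutant 2 highest in both.

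The probes of a region were often not detected together. A probe well above background in all 4 samples was found in 1079 regions (30.4%). Of the 2729 regions with 3 or more probes, 1802 had none, 504 had exactly 1, and in 83 every probe was. Both strands carried probes in 1067 regions. At least 1 sample was above background on the forward strand only in 225 of these, on the reverse strand only in 252, on both in 338 (31.7%) and on neither in 252.

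Regions with a large gap between strands show how one-sided the signal can be. In chrX:18744367-18853992 a forward probe had levels of 15.56 in control 1, 15.31 in mutant 1, 15.59 in control 2 and 14.80 in mutant 2. A reverse probe of that region had 6.37, 6.29, 6.35 and 6.18, and no sample was well above background. In chr11:97275905-97310538 a forward probe had 14.90, 14.65, 14.75 and 14.01 in the same order, and a reverse probe 6.45, 6.49, 6.13 and 6.22. There, mutant 1 alone was well above background on the reverse strand. These are the brightest probes of each strand, in 2 of the 4 regions with the largest gap. In the others the weaker strand was also detected. The reverse probe of chr5:74487385-74497428 was well above background in all samples, and that of chr14:78924115-78938125 in all but mutant 1. Probes differ in how well they bind, so the gap is one of signal, and how far the amounts of RNA differ was not measured.

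Detection went with the strand of a nearby gene. The nearest gene probe with a known symbol was a median of 19844 bases away. Within 1 kb of one on the same strand, 213 of 816 members (26.1%) were well above background in all 4 samples, against 48 of 666 (7.21%) on the opposite strand. From 1 to 10 kb the shares were 15.7% of 2053 and 8.80% of 1955, and from 10 to 50 kb 12.6% of 3281 and 11.2% of 2989. Beyond 50 kb they were 10.2% of 2288 and 10.2% of 2072. Members near 1 gene share it, so these shares are a description.

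**Figure D2:**
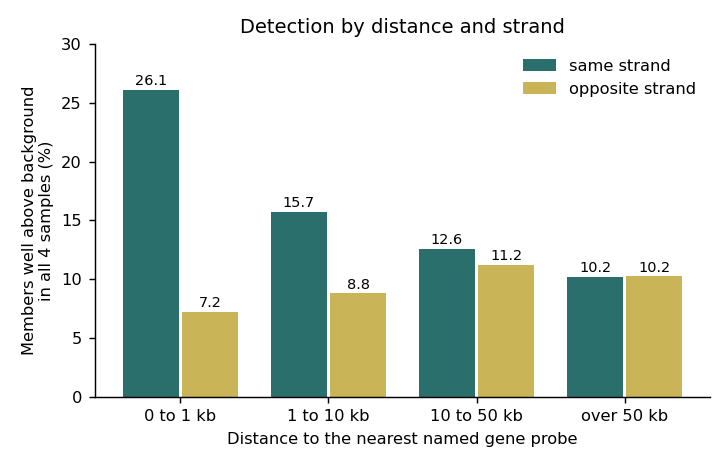
Share of members well above background in all 4 samples (percent, y axis) by distance to the nearest gene probe with a known symbol (x axis), on the same and on the opposite strand. The same-strand share goes from 26.1% within 1 kb to 10.2% beyond 50 kb, and the opposite-strand share lies between 7.21% and 11.2%.

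Detection was also higher for probes with more G and C. Of 442 members with up to 20 G and C among 60 bases, 6.79% were well above background in control 1 and 7.47% in control 2. Of 604 members with 36 or more, 44.0% and 41.7% were. Other gene probes went from 34.2% and 36.5% of 960 probes to 59.1% and 59.5% of 232. The median number of G and C was 27 in members and 25 in other probes.

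The test took probes for which each array had at least 1 sample well above background, which held for 2752 members (16.9%) and 19511 other probes (49.5%). The tested members lie in 1365 stretches after merging overlapping regions of a strand, and 220 share bases with another member. They are therefore not independent of each other.

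No member passed limma's test at an adjusted p of 0.05 over 22263 tested probes, of which 82 passed (0.368%). The smallest adjusted p of a member was 0.075. At an unadjusted p under 0.05, 59 members were higher (2.14%, beside 8.16% of all tested probes) and 175 lower (6.36%, beside 3.19%). A trended and robust prior called 2 higher and 11 lower, where 564 probes of all kinds passed. Limma on separate channels with no replicate block called 0. The 2 ratios leave 1 residual degree of freedom. In a simulation, the test found 1 of 67 probes with a log2 change of 0.5 and 30 of 67 with a change of 1. It found 66 of 66 with a change of 2, and made 12 false calls. The measured ratios of all tested probes had an SD of 0.29 in pair 1 and 0.48 in pair 2. Whether the simulated counts hold for arrays of such unequal spread was not tested.

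Members lay slightly below other probes in both pairs. Their median ratio was -0.05 in pair 1 and -0.05 in pair 2, against 0.03 and 0.04 for other tested probes. Below 0 in both pairs were 1032 members (37.5%) and above 0 in both 548 (19.9%), where other probes had 23.6% and 34.1%. One sign in both pairs was found for 57.4% of members and 57.7% of other probes. Across 2752 members the ratios of the pairs had a Pearson correlation of 0.04 and a Spearman correlation of 0.15, against 0.25 and 0.26 across 19511 other probes. Probes of an array share its RNA samples and neighbouring probes share targets, so these are descriptions. Centring each array on its median instead of loess put the median of all tested probes at 0.39 and 0.84. The member medians then lay at a mean of -0.29 relative to these. Tested members were also dimmer than other tested probes, with a median level of 7.07 against 7.89 in control 1. The part of signal level in these gaps was not tested.

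Large ratios came mainly from pair 2. In pair 1, 1 member was at least 2-fold higher (0.036%, beside 0.907% of all tested probes) and 5 at least 2-fold lower (0.18%, beside 0.198%). In pair 2, 18 members from 7 stretches were at least 2-fold higher (0.654%, beside 1.48% of all tested probes), and 60 from 55 stretches at least 2-fold lower (2.18%, beside 1.48%). In both pairs 0 members were at least 2-fold higher (0.485% of all tested probes) and 1 was lower (0.0449%). These counts depend on the processing: they were 29 and 11 with Agilent's processed signals and 11 and 0 under median centring.

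**Figure D3:**
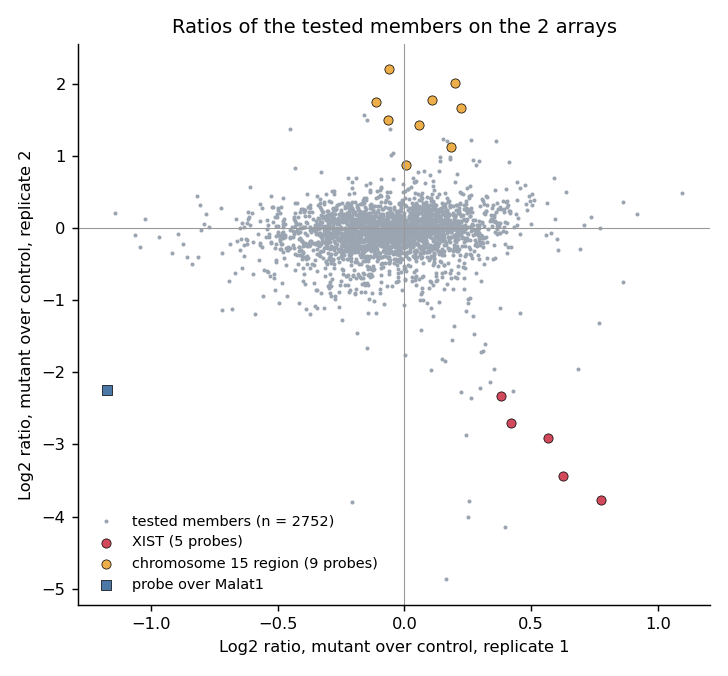
Log2 ratio of mutant over control in pair 1 (x axis, replicate 1) and pair 2 (y axis, replicate 2) for the 2752 tested members, 1 point a probe. XIST probes lie at 0.38 to 0.78 and -3.77 to -2.32, the chromosome 15 probes at -0.11 to 0.22 and 0.88 to 2.20, and the probe over Malat1 at -1.17 and -2.25.

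Median ratios were lowest for the probes with the most G and C, where detection was highest. Tested members with up to 20 G and C (33 probes) had medians of 0.01 and 0.08, those with 26 to 30 (1049 probes) -0.04 and -0.04, and those with 36 or more (288 probes) -0.10 and -0.17. Of the last group 59.0% were below 0 in both pairs and 5.90% above. Other probes went from 0.01 and 0.06 (374 probes) to -0.09 and -0.12 (145 probes), and 44.1% of these last were below 0 in both. Mutant RNA carried Cy5 in both pairs, and the part of the dye in this trend was not tested.

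**Figure D4:**
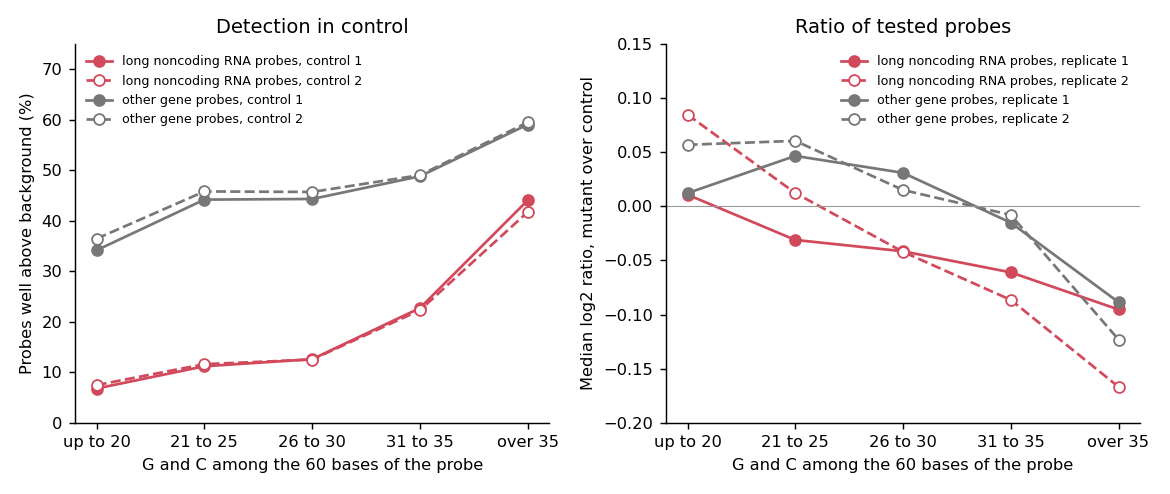
Share of probes well above background in the control samples (left, percent) and median log2 ratio of tested probes (right) against the number of G and C among the 60 bases of a probe; filled points are replicate 1 and open points replicate 2. Member detection in control 1 goes from 6.79% to 44.0%, and the member medians end at -0.10 and -0.17, those of other probes at -0.09 and -0.12.

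Among named RNAs, XIST gave opposite signs in the 2 pairs. Its 5 probes lie on the reverse strand within chrX:100655839-100656141. Levels were 8.63 to 10.07 in control 1, 9.01 to 10.85 in mutant 1, 7.81 to 9.19 in control 2 and 5.40 to 5.51 in mutant 2. Mutant 2 was the low sample, and none of the 5 probes was well above background there. Ratios were 0.38 to 0.78 in pair 1 and -3.77 to -2.32 in pair 2, with adjusted p from 0.59 to 0.63 by limma. The 5 probes read 1 RNA and are not replicates. Both Xist probes outside the set had the same signs, 0.37 and -1.22, and 0.52 and -1.07. Eif2s3y, a Y-linked translation factor gene named here after its values were seen, had levels of 7.85 in control 1, 7.67 in mutant 1, 8.56 in control 2 and 9.25 in mutant 2. Ddx3y, a Y-linked helicase gene, had 7.18, 6.73, 7.62 and 7.83 in that order. Of 2 Uty probes 1 was tested, with ratios of 0.04 and -0.08, and Kdm5d was not well above background in any sample. TSIX, the antisense RNA that opposes XIST, was not well above background for any of 5 probes.

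Of 59 names of known noncoding RNAs, 7 matched 34 members, and 11 probes of XIST, TUG1 and KCNQ1ot1 were tested. Of these 3 were above 0 in both pairs, 2 were below 0 in both, 0 passed limma's test and 0 had an unadjusted p under 0.05. TUG1, a widely expressed RNA, was well above background in all samples for all 5 probes, with levels of 7.02 to 7.87 in control 1, 7.05 to 7.99 in mutant 1, 6.75 to 7.98 in control 2 and 6.86 to 7.91 in mutant 2. Its ratios were -0.00 to 0.14 and -0.10 to 0.24, and the samples overlapped. Tug1 probes outside the set had 0.10 and 0.06, -0.04 and -0.25, and 0.44 and 0.23. KCNQ1ot1 was tested with 1 of 5 probes, at 8.17 in control 1, 7.94 in mutant 1, 7.80 in control 2 and 7.51 in mutant 2. Its ratios were -0.23 and -0.29, with an adjusted p of 0.55 by limma. A Kcnq1ot1 probe outside the set had -0.40 and -0.42, with an adjusted p of 0.33 by limma. NRON, a repressor of NFAT transport into the nucleus, had ratios of -0.10 and -0.24 for 1 tested probe of 5. HOTAIR, made within the HoxC cluster, was above background for 1 of 5 probes and in mutant 2 alone. The p53-induced lincP21 (5 probes) and BRN1-A (4 probes) were not well above background in any sample.

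A probe over Malat1, an abundant nuclear RNA, had the smallest adjusted p of the members. This probe of chr19:5771425-5848475_R, at chr19:5795752-5795811, had levels of 11.45 in control 1, 10.28 in mutant 1, 9.61 in control 2 and 7.36 in mutant 2. Mutant was the lower sample of each pair, but mutant 1 lay above control 2. Its ratios were -1.17 and -2.25 (mean -1.71 ± 0.76, SD, n = 2, adjusted p = 0.075 by limma). The Malat1 probe outside the set shares bases with it and had -1.17 and -2.16, so both read 1 place. The other 6 members of the Malat1 span, within 7 kb on that strand, had ratios of -0.56 to -0.30 in pair 1 and -0.26 to 0.23 in pair 2. Their adjusted p ran from 0.37 to 0.97 by limma. A drop of at least 2-fold was thus seen at 1 place of the span and not along it.

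Of the other members with low means, the probe of chr3:87575891-87576343_F had the smallest adjusted p. Its levels were 10.36 in control 1, 9.65 in mutant 1, 10.12 in control 2 and 8.98 in mutant 2, so both mutant samples lay below both control samples. The ratios were -0.72 and -1.14 (mean -0.93 ± 0.30, SD, n = 2, adjusted p = 0.10 by limma). The probe of chr13:83867711-83878140_R had 11.01, 10.42, 10.93 and 9.74 in that order, with the same separation. Its ratios were -0.59 and -1.20, with an adjusted p of 0.15 by limma. The nearest gene, C130071C03Rik, a noncoding RNA gene 10710 bases away on the opposite strand, had -0.03 and 0.11.

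The chromosome 7 probes with a shared stretch gave like ratios. That of chr7:50509139-50526856_R had levels of 12.55 in control 1, 11.87 in mutant 1, 12.43 in control 2 and 11.31 in mutant 2, and both mutant samples were below both controls. Its ratios were -0.68 and -1.12, with an adjusted p of 0.11 by limma. That of chr7:48794017-48815817_F had -0.29 and -0.94, with an adjusted p of 0.31 by limma. RNA from either place could bind both, so they are not counted as 2 results. A run of 30 bases shared with another member was found in 248 tested members.

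CTCTCC stood in 13 of the 50 tested members with the lowest mean ratio (26%) and in 4 of the 50 with the highest (8%). It stood in 145 of 2752 tested members (5.27%), in 387 of all 16238 members (2.38%) and in 1.67% of tested other probes. Its reverse complement, GGAGAG, stood in 0 of the lowest 50, 2 of the highest 50 and 1.64% of tested members. Tested members with CTCTCC had median ratios of -0.07 and -0.17, against -0.05 and -0.04 without it. The letters were picked from the lowest members themselves, and those members are among the 145, so these counts and medians are descriptions and support nothing.

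Another set was low in mutant 2 alone. Besides XIST and the probe over Malat1, 11 members were at least 4-fold lower in pair 2, with ratios of -4.87 to -2.13 there and -0.21 to 0.43 in pair 1. The probe of chr12:52880692-52933444_F had levels of 13.42 in control 1, 13.59 in mutant 1, 13.28 in control 2 and 8.41 in mutant 2. That of chr1:36086491-36087863_R had 11.48, 11.88, 10.72 and 6.59, and that of chr9:78372153-78372834_F 12.52, 12.77, 12.02 and 8.02. In each, mutant 2 lay far below the other 3 samples, and adjusted p ran from 0.48 to 0.54 by limma. A gene with a known symbol lay within 50 kb of 10 of the 11 members, and these genes had pair 2 ratios of only -0.28 to 0.39. Acinar genes showed the same contrast between pairs (medians 0.46 and -5.12), and their part in these members was not tested.

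**Figure D5:**
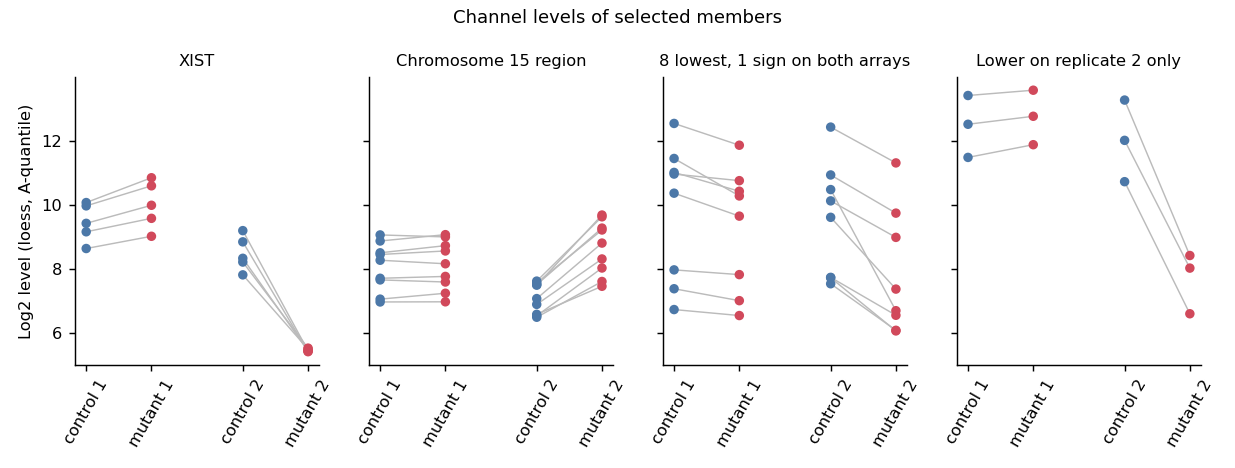
Log2 level (y axis, after loess and A-quantile normalization) in control (blue) and mutant (red) samples for XIST, the tested chromosome 15 probes, the 8 lowest members with 1 sign in both pairs and 3 members lower in pair 2 only; each line joins the samples of 1 array for 1 probe. XIST lies between 5.40 and 5.51 in mutant 2, and the chromosome 15 probes are lowest in control 2.

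High members gathered in few places. The regions chr15:32167516-32174427_R and chr15:32167516-32174417_R held 8 of the 18 members at least 2-fold higher in pair 2. The first probe shown above, at chr15:32170344-32170403, had levels of 9.06 in control 1, 8.99 in mutant 1, 7.48 in control 2 and 9.68 in mutant 2. The second had 8.87, 9.07, 7.61 and 9.62, so control 2 was the low sample in both. Of the 10 probes there 9 were tested, many of them overlapping, 3 of them not well above background in control 2, with ratios of -0.11 to 0.22 and 0.88 to 2.20 and adjusted p from 0.37 to 0.54 by limma. A probe outside the set named LOC100616095, at chr15:32170363-32170422, had 0.22 and 2.13 and reads nearly the same bases as the second probe.

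The same shape was seen on chromosome 5, where 6 probes of chr5:22890322-22939119_R and chr5:22887983-22939658_R had ratios of 0.14 to 0.36 and 0.47 to 1.24. The one with the highest mean holds 2 copies of 1 stretch, in capitals.
chr5:22890322-22939119_R: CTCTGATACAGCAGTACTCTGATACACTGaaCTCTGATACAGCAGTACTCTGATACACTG
It had levels of 7.27 in control 1, 7.63 in mutant 1, 6.53 in control 2 and 7.73 in mutant 2, and control 2 was again lowest. Control 2 was not well above background for this probe and for 3 of the other 5, so their pair 2 ratios are set against a dim sample. Adjusted p ran from 0.28 to 0.52 over the 6 probes by limma. Beside Mgam, a maltase gene, a probe of chr6:40699474-40719122_F had ratios of -0.45 and 1.37, while Mgam had -0.09 and 0.48. In chr6:145647711-145756861_F the larger ratio came from pair 1: levels were 10.34 in control 1, 11.44 in mutant 1, 11.47 in control 2 and 11.95 in mutant 2. The ratios were 1.09 and 0.48 (mean 0.79 ± 0.44, SD, n = 2, adjusted p = 0.20 by limma), and mutant 1 lay below control 2.

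The 6 brightest tested members in control mostly had ratios below 0. They include a probe on each strand of chr12:73838608-73862621, shown with the longest run of C and T in capitals because 48 and 47 of their bases are G or C.
chr12:73838608-73862621_F: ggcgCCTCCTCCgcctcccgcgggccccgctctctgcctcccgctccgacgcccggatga
chr12:73838608-73862621_R: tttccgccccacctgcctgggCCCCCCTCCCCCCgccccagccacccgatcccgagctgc
The forward probe had levels of 15.93 in control 1, 15.79 in mutant 1, 16.44 in control 2 and 15.89 in mutant 2. The reverse probe had 15.56, 15.16, 15.57 and 15.14. All 6 had ratios below 0 in pair 1, from -0.47 to -0.14. In pair 2, 5 were at -0.80 to -0.43 and chr19:5801802-5802597_R at 0.12. Adjusted p ran from 0.31 to 0.78 by limma, and all 6 means turned positive under median centring. The median of all tested probes then lay at 0.39 in pair 1 and 0.84 in pair 2. Relative to that median, the chromosome 12 forward probe had a mean of 0.071 and the reverse probe -0.017.

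The 20 members in the chr17:39960567-39992817 region, which holds the Rn18s ribosomal RNA gene, were all tested and were chosen after values were seen. They lie on both strands, so not all of them read the ribosomal RNA. Levels in control 1 were 8.20 to 9.66 on the reverse strand and 10.39 to 15.11 on the forward strand. The ranges that follow take both strands together. Their ratios were -0.57 to 0.12 in pair 1 and -1.17 to 0.09 in pair 2, with adjusted p from 0.26 to 0.98 by limma. The Rn18s probe outside the set had 0.41 and 0.43.

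Ratios of probes of 1 region and strand were also set side by side. In 612 region strands with 2 or more tested probes (1733 probes) the median SD between them was 0.13 in pair 1 and 0.15 in pair 2. The SD over all tested members was 0.23 and 0.42. A median of SDs over few probes and 1 SD over all members are unlike measures, so the gap does not show closer ratios within a region. Overlapping probes, which read the same bases, are counted here.

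Ratios of members were also set beside those of the nearest gene. For 240 tested members within 1 kb of a tested gene probe on the same strand (83 genes), the Pearson correlation over pairs of probes was 0.56 in pair 1 and 0.74 in pair 2. At 1 to 10 kb it was 0.34 and 0.12 (385 members), and at 10 to 50 kb 0.22 and -0.06 (508 members). Within 1 kb on the opposite strand it was 0.06 and 0.18 (47 members). Some of these members share bases with a gene probe, and XIST is paired with Xist. Without pairs that share bases, Xist and Malat1, a choice made after seeing the data, the values within 1 kb on the same strand were 0.37 and 0.35 (171 members, 66 genes). Without Xist and Malat1 alone they were 0.48 and 0.50 (234 members). Members share genes and all share the RNA samples of an array, so these are descriptions.

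Where a genotype was dim in both of its samples, only a bound can be given. Such members were well above background in both mutant samples alone (278) or both control samples alone (4). These are 1.71% and 0.025% of members, where other probes had 2.76% (1089) and 0.013% (5). A bound above 1 was found for 201 of the 278, the largest at least 1.57-fold higher in mutant, for a probe of chr6:40699474-40719122_F. That probe had ratios of -0.06 in pair 1 and 1.37 in pair 2, so its bound rests on pair 2. A bound above 1 was found for 4 of the 4 in control, the largest at least 1.60-fold lower in mutant, for chr13:22110479-22116629_R. This chromosome 13 probe had ratios of -0.39 in pair 1 and -1.13 in pair 2, so its bound rests mostly on pair 2. Each bound sets the mean level of the detected genotype over, per array, the higher of the dim probe's level and the lowest level well above background, and is open to dye bias.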

How the data were processed

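Control RNA was labelled with Cy3 and mutant RNA with Cy5, per the labels' protocols. The submitters' processing notes name the image software, Agilent Feature Extraction 10.7.3.1. Probe positions refer to mm9, per the file headers. In the deposited files the intensity of a spot is its mean signal, with the median local background beside it. They also give the software's log10 ratio of mutant over control, which the authors' value table repeats. Deposited flags, used as a score of 0 or 1, tell whether a spot is well above background, per the file headers.

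With limma 3.58.1 (R 4.3.3), intensities were corrected by normexp (offset 50, which draws dim ratios towards 0) and loess-normalized (span 0.3), with control and outlier spots at weight 0. Both log2 ratios of each tested probe were compared with 0 in a two-sided test (lmFit, eBayes), adjusted by Benjamini-Hochberg over 22263 probes (prior degrees of freedom 4.9). This step was tested on simulated data. Levels also had A-quantile normalization between arrays. Only 2 arrays, on 1 slide, limit the precision.

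Named members are the 8 highest and 8 lowest by mean ratio among those with 1 sign on both arrays, the 6 brightest in control, the 4 with the largest difference between arrays in each direction, known names, 4 regions by strand difference, and nearest genes within 50 kb. Members of the chromosome 5 and 15 regions beyond these and the second chromosome 7 probe were picked after their values were seen. So were the other members of the Malat1 span, the Rn18s neighbours and the Y-linked genes. Members and lists were chosen with earlier results of these data known.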

Additional observations from a re-analysis of the deposited data

How the results depend on the processing

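Members past the test (0 higher, 0 lower) numbered 243 and 7 under median centring, where 6731 probes of all kinds passed. Under median centring relative to the median of all tested probes (added after seeing the data) they numbered 6 and 60, among 787. They numbered 0 and 4 with no filter on dim probes, among 356, and 2 and 11 with a trended and robust prior, among 564. Separate channels with no replicate block, which drop the pairing within an array, called 0. Members at least 2-fold higher in both pairs (0) numbered 29 with Agilent's processed signals and with the series matrix values, 4 with a normexp offset of 0 and 11 under median centring, and 1 to 18 with 1 replicate left out. Those at least 2-fold lower (1) numbered 11, 11, 2 and 0, 0 relative to the median, and 5 to 60 with 1 replicate left out. The share with 1 sign (57.4%) was 60.3% with Agilent's signals and the matrix values, 75.9% under median centring, 77.6% relative to the median and 53.6% with no filter. The mean of the 2 medians (-0.05) was -0.15, -0.15, 0.33, -0.29 and -0.011 in that order, -0.11 with an offset of 0 and -0.084 with both channels above background. Counting spots that are positive and significant, 39.8% of members were detected in control and 44.5% in mutant. The correlation with the nearest gene (0.18) was 0.34 within 10 kb, and 0.11 without pairs that share bases, Xist and Malat1 (added after seeing the data).

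Of 50 named members with a test, 18 turned sign under median centring: KCNQ1ot1 to 0.37, NRON to 0.13, a TUG1 probe to 0.59, 4 probes beside Airn to 0.15, 0.14, 0.17 and 0.49, and the regions on chromosome 11 to 0.51, 12 to 0.69 and 0.60, 14 to 0.69, 19 to 0.84, 2 to 0.47, 4 to 0.59, 5 to 0.87 and 0.15, 7 to 0.026 and X to 0.50. Relative to the median 7 did: 2 TUG1 probes to -0.15 and -0.15, a probe beside Airn to -0.20, and those on chromosomes 12, 14, 19 and 5 to 0.071, 0.068, 0.23 and 0.25. A TUG1 probe turned to -0.026 with Agilent's signals and the matrix values and to -0.023 with separate channels, where chr19:5801802-5802597_R turned to 0.062. The cause was not tested. Signal limits the set, since 75.4% of members were not well above background in any sample.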
